A study of Mus musculus with 9 samples.

Results

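Chromatin accessibility was examined at 9 genes of the transforming growth factor beta (TGF-beta) pathway, chosen by name: the ligands Tgfb1, Tgfb2 and Tgfb3, the receptors Tgfbr1, Tgfbr2 and Tgfbr3, the receptor-activated SMADs Smad2 and Smad3, and the inhibitory SMAD gene Smad7. They are 9 of 21938 protein-coding genes on the assembled chromosomes of the GENCODE M21 annotation (GRCm38, mm10). All 9 had an accessible site at a transcription start site (TSS) in every peak list, and the gene bodies with 10 kb on either side held 126 sites. ATAC-seq, which maps where a transposase can cut chromatin, had been performed in primary mouse embryonic fibroblasts (MEFs) below passage 8 that were wild type (WT, 3 libraries), Anp32e null without transfection (3 libraries), Anp32e null transfected with a non-targeting siRNA pool (NT siRNA, 1 library) and Anp32e null transfected with a pool of 4 H2A.Z siRNAs (H2A.Z siRNA, 2 libraries). All siRNA-treated cells therefore also lacked Anp32e, which encodes a chaperone that removes the histone variant H2A.Z from chromatin, and no siRNA-treated WT cells were among the samples. The first comparison, Anp32e null against WT, asks what loss of the chaperone does to accessibility. The second, H2A.Z siRNA against NT siRNA, asks what lowering H2A.Z does in its absence, although these lists also differ in depth and number of libraries.

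TGF-beta ligands bind a type II receptor, which recruits and phosphorylates a type I receptor. The type I receptor then phosphorylates SMAD2 and SMAD3, which enter the nucleus with SMAD4 and regulate target genes, while SMAD7 is induced by the same signal and blocks the receptor. In fibroblasts the pathway is known for driving extracellular matrix production and conversion to contractile myofibroblasts.

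Each group had 1 peak list, called on its libraries together, so no spread between replicates could be measured and no test was made. A peak's level is given as the percentile of its fold enrichment within its own list, where 100 is the strongest peak, and as the number of fragments over its summit with an exact Poisson 95% interval that covers counting error only. Fold enrichment is taken against the background around the peak. Fragment counts are given without scaling for depth. Of peaks, WT had 84040 and Anp32e null 82567, while the NT siRNA list had 89272 and the H2A.Z siRNA list 108409, and their genome-wide backgrounds of 8.85, 5.12, 3.88 and 17.82 fragments show that the H2A.Z siRNA list was the deepest and the NT siRNA list the shallowest. After division by this background, summit fragments at all shared sites had a median ratio of 1.51 between Anp32e null and WT (0.59 on the log2 scale, 66194 sites) and of 0.828 between H2A.Z siRNA and NT siRNA (-0.27 on the log2 scale, 81659 sites), and fragment ratios below are given relative to these medians. The untransfected and transfected pairs differed in transfection and in depth, which cannot be told apart, so differences were counted within a pair, and values of all 4 lists are given side by side. Depth also differed within each pair. The H2A.Z siRNA list had 4.59 times the background of the NT siRNA list, and 2 libraries against 1. Within that pair, siRNA target, depth and number of libraries cannot be told apart.

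The RefSeq promoter table of build GRCm38.p6 matched 5 of the 9 genes. The sequences below are of sites and promoters named in the results. They come from the GRCm38 genome (intronic sites, 100 bases either side of the WT summit) or that table (250 bases before the annotated start). They are written 5′ to 3′ on the strand of the gene, and capitals mark the letters searched for, on both strands: TGANTCA (AP-1), TGACGTCA (CRE), GTCTAGAC (SMAD box), GGCGCC (a GC-rich SMAD site), GGGCGG (SP1), CCAAT (NF-Y) and GGAATG (TEAD). The first is the strongest site of all 9 genes in WT MEFs, at chr9:116152919-116153119 on the minus strand.
Tgfbr2 intronic site: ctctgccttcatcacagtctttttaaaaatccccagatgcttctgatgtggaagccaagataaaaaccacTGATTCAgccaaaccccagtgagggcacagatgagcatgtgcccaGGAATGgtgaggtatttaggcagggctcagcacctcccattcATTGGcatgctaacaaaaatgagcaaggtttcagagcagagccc
The next is the strongest site of Tgfbr1 outside its start, at chr4:47407299-47407499 on the plus strand.
Tgfbr1 intronic site: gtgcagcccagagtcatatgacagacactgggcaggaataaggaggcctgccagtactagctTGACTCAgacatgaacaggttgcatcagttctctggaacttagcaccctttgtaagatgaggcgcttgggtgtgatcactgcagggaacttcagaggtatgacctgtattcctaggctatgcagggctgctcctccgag
The third, at chr9:63706222-63706422 on the minus strand, is the shared site that ranked furthest up in Anp32e null MEFs.
Smad3 intronic site: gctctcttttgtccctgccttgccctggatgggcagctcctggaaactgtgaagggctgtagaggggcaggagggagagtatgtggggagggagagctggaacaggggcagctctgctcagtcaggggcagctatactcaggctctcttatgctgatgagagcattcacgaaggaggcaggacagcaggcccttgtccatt
The site that ranked furthest down lies at chr1:186702808-186703008 on the minus strand.
Tgfb2 intronic site: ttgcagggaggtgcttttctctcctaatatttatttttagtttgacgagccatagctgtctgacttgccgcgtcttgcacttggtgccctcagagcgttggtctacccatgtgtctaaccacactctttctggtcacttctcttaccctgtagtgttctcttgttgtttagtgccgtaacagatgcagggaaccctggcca
A pair of promoters in which the TSS peak had its WT summit follow, Tgfbr1 at chr4:47352972-47353221 (plus strand) and Smad3 at chr9:63757995-63758244 (minus strand).
Tgfbr1 promoter: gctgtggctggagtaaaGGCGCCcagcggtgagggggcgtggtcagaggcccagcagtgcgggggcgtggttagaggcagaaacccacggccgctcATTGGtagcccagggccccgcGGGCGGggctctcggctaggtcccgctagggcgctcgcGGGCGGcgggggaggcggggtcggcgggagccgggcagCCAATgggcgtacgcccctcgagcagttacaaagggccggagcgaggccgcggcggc
Smad3 promoter: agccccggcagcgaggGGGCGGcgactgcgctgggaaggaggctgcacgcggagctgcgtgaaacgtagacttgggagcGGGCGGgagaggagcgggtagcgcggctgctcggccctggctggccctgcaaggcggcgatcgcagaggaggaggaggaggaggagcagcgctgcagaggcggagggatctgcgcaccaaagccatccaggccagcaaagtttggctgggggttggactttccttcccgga
The Tgfbr2 intronic site held AP-1, TEAD and NF-Y letters at positions 71, 116 and 158, and the Tgfbr1 intronic site held AP-1 letters at position 63, counted from 1 at the 5′ end. AP-1 letters were in 33.6% of the same windows at all 62672 WT peaks further than 1 kb from any annotated start, and TEAD letters in 23.0% of them. Neither of the intronic sites of Smad3 and Tgfb2 held any of the 7 motifs. The Tgfbr1 promoter held 5 matches, a GC-rich SMAD site at position 18, SP1 letters at 118 and 156 and NF-Y letters at 97 and 194, and the Smad3 promoter held SP1 letters at 17 and 80. Of 32851 promoters of that length, 9.59% held GGCGCC, 32.7% held GGGCGG and 33.8% held CCAAT. A match describes letters and not a bound site.

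The starts of the ligand genes Tgfb3 and Tgfb1 ranked lowest of the 9 in every list. Tgfb1 (ENSMUSG00000002603.15, chr7:25687002-25705077, plus strand), the founding ligand of the family, was at percentile 66.5 in WT, 65.6 in Anp32e null, 61.2 in NT siRNA and 62.0 after H2A.Z siRNA, with 165 (141 to 192), 159 (135 to 186), 263 (232 to 297) and 936 (877 to 998) summit fragments. Its peak in WT was 2651 bp wide, the broadest WT TSS peak of the 9 genes, and its summit lay 2197 bp past the first annotated start and 272 bp past another. Tgfb2 (ENSMUSG00000039239.14, chr1:186622792-186705989, minus strand), a ligand with roles in heart and eye development, was at 79.1, 74.6, 63.8 and 72.1 in the same order, with 221 (193 to 252), 238 (209 to 270), 267 (236 to 301) and 1016 (954 to 1080) fragments. Tgfb3 (ENSMUSG00000021253.7, chr12:86056745-86079041, minus strand), a ligand needed for palate fusion, was at 60.5, 39.4, 41.9 and 49.0, with 119 (98.6 to 142), 92 (74.2 to 113), 264 (233 to 298) and 1016 (954 to 1080) fragments. Over each list's genome-wide background, and before division by the median of all shared sites, the Tgfb3 fragments in Anp32e null were 1.34 times those in WT (1.01 to 1.77).

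The starts of the receptor genes ranked between percentiles 75.4 and 92.2. Tgfbr1 (ENSMUSG00000007613.15, chr4:47353222-47414931, plus strand), which encodes the type I receptor kinase, was at percentile 81.0 in WT, 82.0 in Anp32e null, 75.4 in NT siRNA and 76.1 after H2A.Z siRNA, with 185 (159 to 214), 227 (198 to 259), 283 (251 to 318) and 1050 (987 to 1115) fragments. Tgfbr2 (ENSMUSG00000032440.13, chr9:116084293-116175360, minus strand), the ligand-binding type II kinase, was at 92.2, 86.5, 79.2 and 81.9, with 352 (316 to 391), 265 (234 to 299), 318 (284 to 355) and 1246 (1178 to 1317) fragments. Tgfbr3 (ENSMUSG00000029287.14, chr5:107106570-107289629, minus strand), the co-receptor betaglycan that presents ligand, was at 90.8, 91.1, 79.2 and 90.0, with 247 (217 to 280), 247 (217 to 280), 382 (345 to 422) and 1604 (1526 to 1684) fragments.

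Among the SMAD genes the start of Smad2 was the strongest of all 9 genes in every list. Smad2 (ENSMUSG00000024563.16, chr18:76241580-76310963, plus strand) was at percentile 98.0 in WT, 94.95 in Anp32e null, 94.1 in NT siRNA and 94.0 after H2A.Z siRNA, with 470 (428 to 514), 439 (399 to 482), 684 (634 to 737) and 2649 (2549 to 2752) fragments. Smad3 (ENSMUSG00000032402.12, chr9:63646767-63757994, minus strand), which unlike the common form of SMAD2 binds DNA directly, was at 75.4, 81.7, 73.6 and 80.2, with 140 (118 to 165), 134 (112 to 159), 377 (340 to 417) and 1740 (1659 to 1824) fragments. Smad7 (ENSMUSG00000025880.11, chr18:75367529-75395935, plus strand), the feedback inhibitor, was at 79.2, 70.2, 64.3 and 69.0, with 272 (241 to 306), 266 (235 to 300), 605 (558 to 655) and 2463 (2367 to 2562) fragments. Smad7 ranked below Smad3 in 3 lists although it had more summit fragments, and its local background in NT siRNA was 16.6 times the genome-wide one against 8.54 times at Smad3. By summit fragments Smad7 was at percentile 96.0, 96.1, 99.0 and 99.4 of the 4 lists. The plot of TSS percentiles shows the 9 genes beside the median of all protein-coding genes with such a site, which was 81.5, 80.0, 79.4 and 81.4.

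**Figure D1:**
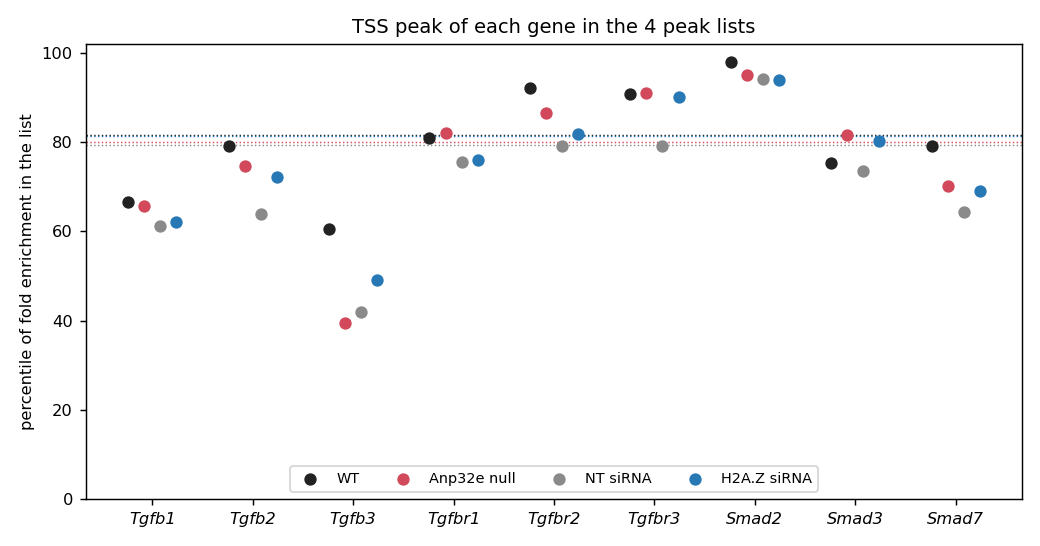
Percentile of fold enrichment of each gene's TSS peak (y axis) in the lists of WT, Anp32e null, NT siRNA or H2A.Z siRNA cells (coloured points), with the median of all protein-coding genes in each list as dotted lines. Smad2 lies between 94.0 and 98.0 in the 4 lists, and Tgfb3 between 39.4 and 60.5.

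Beside the 9 of 9 genes in each list, a TSS peak was called for 67.2% of protein-coding genes in WT, 66.7% in Anp32e null, 66.8% under NT siRNA and 68.4% under H2A.Z siRNA. The TSS peaks of the 9 genes had a median width of 1728, 1586, 1650 and 1844 bp beside 1143, 1116, 1087 and 1302 bp over all protein-coding genes. The narrowest in each list was that of Tgfb2 (1052 to 1143 bp), and the broadest was that of Tgfb1 (2651 to 3343 bp).

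In Anp32e null MEFs the start of Tgfb3 ranked lower and the other 8 starts moved by less than 10 points. Tgfb3 went from percentile 60.5 to 39.4, a change of -21.1 points, and it was the only member past 10 points downward, beside 11% of all 14357 protein-coding TSS sites. No member ranked 10 points higher, beside 6.9% of all. The next were Smad7 (-8.99 points), Tgfbr2 (-5.61), Tgfb2 (-4.49), Smad2 (-3.05) and Tgfb1 (-0.86), and Tgfbr3 (0.24), Tgfbr1 (0.94) and Smad3 (6.32) moved up. The median over the 9 genes was -3.05 points, beside -1.29 over all, but it was 0.76 when peaks were ranked by −log10 p and 0.33 when ranked by summit fragments. Counted in fragments the order was different. Over background alone, the ratios of the 9 starts ran from 1.30 (Tgfbr2) to 2.12 (Tgfbr1), beside a median of 1.51 over all shared sites. Tgfbr1 had 1.41 times the ratio of the median shared site (95% interval 1.15 to 1.72) and Tgfb2 1.24 times (1.02 to 1.49), and these were the 2 of 9 intervals that lay above the median, beside 17.6% of all TSS sites. None lay below it, beside 6.25% of all. Tgfb3 had a ratio of 0.887 (0.668 to 1.17), an interval that includes 1, while its local background was 1.46 times as high in Anp32e null as in WT, each over its genome-wide background. Ranked by fragments, Tgfb3 went from percentile 81.6 to 77.0. Over the 9 genes the local background ratio had a median of 1.46, beside 1.27 over all TSS sites.

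After H2A.Z siRNA the start of Tgfbr3 ranked higher, and 8 of the 9 starts moved up in rank. Tgfbr3 went from 79.2 in NT siRNA to 90.0, a change of 10.8 points, and it was the only member past 10 points upward, beside 14% of all 14614 protein-coding TSS sites. None ranked 10 points lower, beside 2.7% of all. Tgfb2 (8.30 points), Tgfb3 (7.10), Smad3 (6.66), Smad7 (4.65), Tgfbr2 (2.64), Tgfb1 (0.77) and Tgfbr1 (0.62) moved up by less, and Smad2 changed by -0.08 points. The median was 4.65 points, beside 2.06 over all, and 66.8% of all TSS sites moved up in this pair. With the same number of peaks taken from each list the median over the 9 genes turned to -1.48 points, and no member then passed 10 points upward, nor did any when peaks were ranked by −log10 p or by summit fragments. In fragments, the interval of Smad3 alone lay above the median shared site, at 1.21 times (1.08 to 1.36), beside 15.9% of all TSS sites, and none lay below, beside 22.7% of all. Tgfbr3 was at 1.10 times (0.987 to 1.24), an interval that includes 1. Over background alone, the ratios ran from 0.775 (Tgfb1) to 0.914 (Tgfbr3) at all starts but Smad3 (1.00, 0.899 to 1.13). The median over all shared sites was 0.828. All 9 peaks were wider in the deeper H2A.Z siRNA list, by a median ratio of 1.07 beside 1.14 over all. The largest widening was at Tgfb3, from 1355 to 2576 bp, where the deeper list's peak also spanned a peak that NT siRNA had apart, with 88 fragments.

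**Figure D2:**
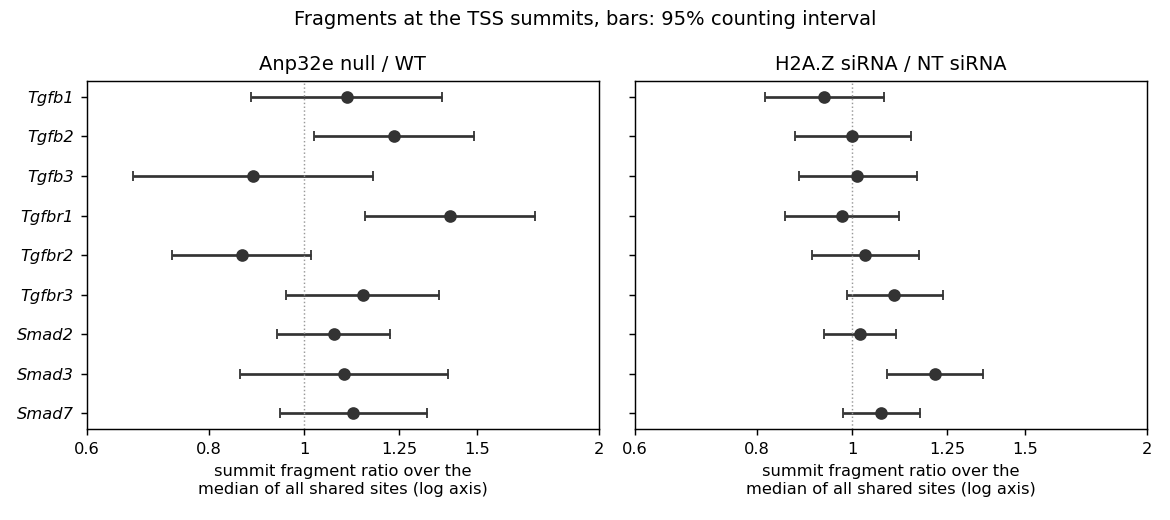
Ratio of summit fragments at the TSS of each gene, divided by each list's genome-wide background and by the median ratio of all shared sites (x axis, log scale), for Anp32e null over WT (left) and H2A.Z siRNA over NT siRNA (right), with bars for the 95% counting interval. Tgfbr1 (1.41) and Tgfb2 (1.24) lie above 1 on the left, and Smad3 (1.21) on the right.

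Around the starts, the loci differed in how many sites they held and in how far from the start the strongest lay. Of the 126 sites, 65 (51.6%) were called in all 4 lists, beside 47.1% of the 91223 sites of protein-coding loci. There were 81 sites in WT, 77 in Anp32e null, 95 in NT siRNA and 115 after H2A.Z siRNA. Apart from 18 sites near a start of the genes themselves and 11 near the start of another gene only, 97 sites were distal. Smad7 was the densest locus with 31.0 sites per 100 kb and Tgfbr1 the sparsest with 6.12. Smad3 and Tgfbr3 held 29 sites each, of which 15 and 13 were in all 4 lists. A further 17 sites (13.5%) were called in the NT siRNA and H2A.Z siRNA lists and in neither untransfected list, beside 9.27% of all, and Smad3 and Tgfbr3 held 6 each of them. The map of sites by distance from the start and the counts per gene show both features.

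**Figure D3:**
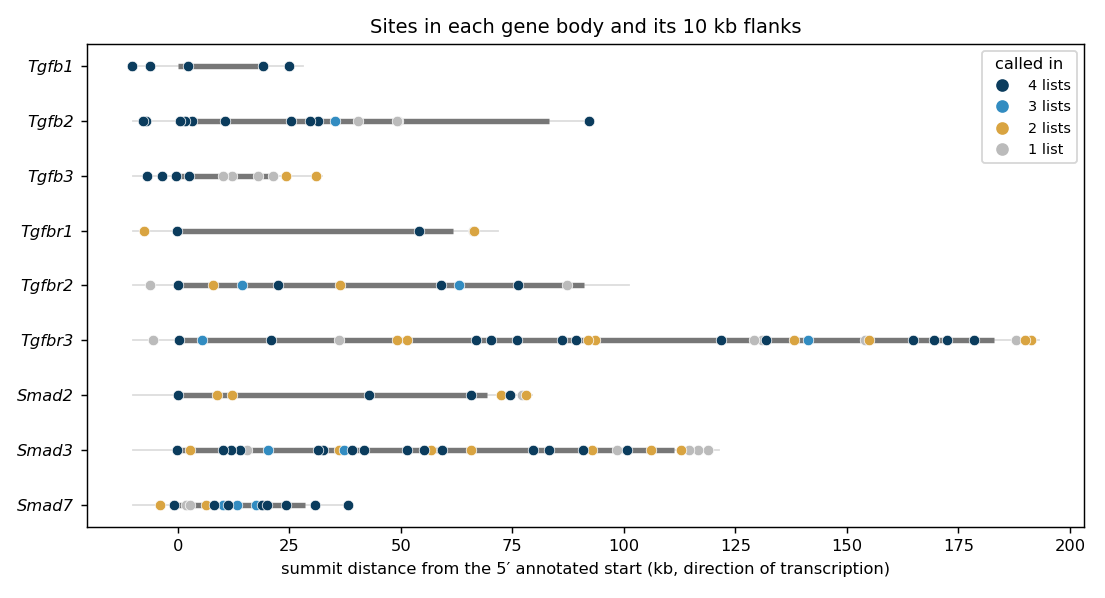
Sites of each gene by the distance of their summit from the first annotated start in the direction of transcription (x axis, kb), with gene bodies as thick bars, flanks of 10 kb as thin lines and colour for the number of lists that called a site. Smad3 and Tgfbr3 hold 29 sites each and Tgfb1 and Tgfbr1 hold 5 each.

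**Figure D4:**
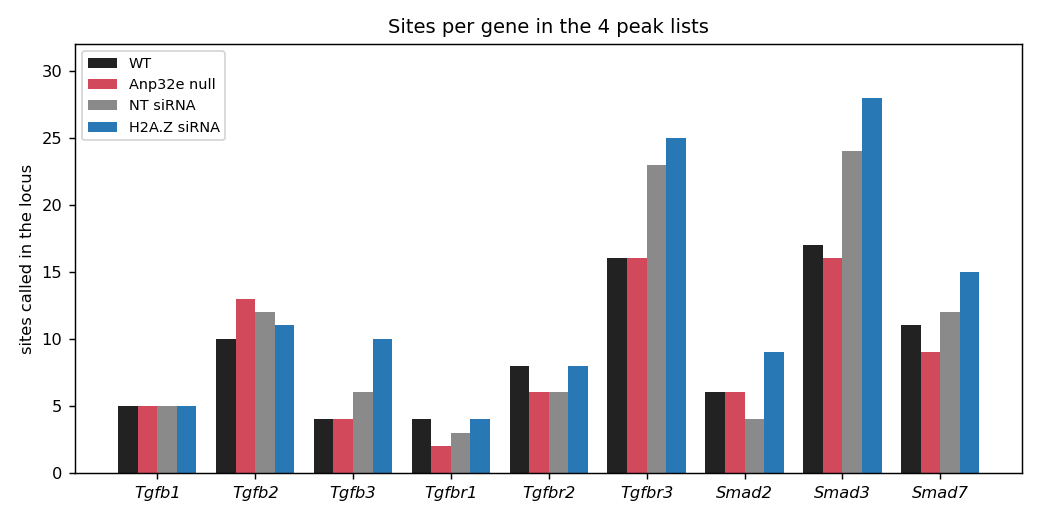
Number of sites (y axis) called in each gene's locus in the 4 lists (coloured bars). Smad3 had 17, 16, 24 and 28 sites and Tgfbr3 had 16, 16, 23 and 25 in the order of the legend.

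The receptor loci held the distal sites of highest fold percentile, singled out here after their values were seen. By fragments a distal site of Tgfb1 (chr7:25710777-25712608), with 224, 257, 394 and 1608, stood above the Tgfbr1 site below in every list and above the Tgfbr3 site in WT, Anp32e null and H2A.Z siRNA. In H2A.Z siRNA it also stood above the Tgfbr2 site, which had 1600. The Tgfbr2 intronic site whose sequence is given above (chr9:116152511-116153619) lies 22340 bp into the gene. It was at percentile 99.7 in WT, 99.8 in Anp32e null, 99.3 in NT siRNA and 97.5 after H2A.Z siRNA, with 543, 485, 544 and 1600 fragments, above the TSS of Tgfbr2 in each list by percentile and by fragments. After H2A.Z siRNA its fragment ratio was 0.773 of the median shared site (0.701 to 0.854). The Tgfbr1 intronic site (chr4:47407045-47407866), 54153 bp into the gene, was at 92.3, 95.3, 98.5 and 97.4 with 107, 89, 157 and 445 fragments, above its own start by percentile and below it by fragments in each list. Its ratio after H2A.Z siRNA was 0.745 (0.620 to 0.900). A Tgfbr3 intronic site (chr5:107157067-107157960), 131961 bp into the gene, was at 92.5, 97.9, 95.5 and 93.7 with 218, 245, 401 and 1368 fragments, and its ratio after H2A.Z siRNA was 0.897 (0.802 to 1.005). All 3 sites were above percentile 92 in every list, while none of the distal sites of the ligand genes passed percentile 86.

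Tgfb1 had the same 5 sites in every list, including a site at -6176 bp from its start, at the start of the neighbouring gene B9d2 (percentile 89.6, 93.7, 90.7 and 89.2) and a site beyond the gene's end at 74.8, 84.7, 76.2 and 78.7. WT and Anp32e null had 4 peaks each inside the gene body and flanks. At the outermost upstream site (chr7:25676348-25677185), only the peaks of the siRNA lists reached the 10 kb flank. Tgfb2 had 10, 13, 12 and 11 sites in the 4 lists, of which 10 were shared by all. Its strongest distal site in WT (chr1:186694994-186696080), in an intron 10540 bp from the start, was at 85.3, 74.1, 70.2 and 67.6, and an intronic site at 25262 bp (chr1:186680606-186681327) was at 65.3, 74.2, 70.3 and 69.8. Tgfb3 had 4 sites in WT and in Anp32e null, 6 in NT siRNA and 10 after H2A.Z siRNA, and 4 sites in its gene body were called only after H2A.Z siRNA, at percentiles 4.36 to 20.8.

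Among the SMAD loci, Smad2 had a single strong site, its start, and its next best in WT was an intronic site (chr18:76284087-76284842) at percentile 52.7. Smad3 had a row of intronic sites from 2783 to 106169 bp past its start, the best of which in WT (chr9:63666613-63667701, 71.3, 65.0, 75.4 and 70.2) lay near an internal annotated start. Smad7 had 11, 9, 12 and 15 sites. Its 3 best intronic sites (8174, 18783 and 24311 bp past the start) were at 66.2, 64.4 and 63.5 in WT, at 66.9, 61.4 and 56.6 in Anp32e null, at 45.4, 41.2 and 41.3 in NT siRNA and at 50.7, 50.3 and 56.4 in H2A.Z siRNA, and 5 of its other sites stood below percentile 5 in each list that called them.

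In Anp32e null, 21 of the 69 shared member sites ranked 10 points or more lower than in WT (30.4%) and 4 higher (5.80%). Over all protein-coding loci the shares were 20.2% down and 17.9% up. With peaks of −log10 q of 5 or more, 13 moved down (20.97%, beside 17.3%) and 9 up (14.5%, beside 22.02%). Tgfb2 held 7 of the 21, more than any other gene, out of its 10 shared sites, and none of its sites moved up that far. Counted in fragments, however, 3 of its 10 sites had an interval above the median shared site and 1 below it. Its intronic site 3.08 kb past the start, whose sequence is given above, fell furthest, from percentile 37.7 to 6.13. It had 100 fragments in WT, the deeper list of the pair, and 75 in Anp32e null, a ratio of 0.861 relative to the median shared site (0.629 to 1.17). This site was at 31.3 after H2A.Z siRNA and at 16.8 after NT siRNA. The Tgfb2 start itself moved by -4.49 points. Smad3 moved in both directions, with 4 sites down and 3 up. Its intronic sites 10.1 kb (chr9:63747514-63748302) and 11.9 kb (chr9:63745890-63746585) past the start went from 57.6 to 26.7 and from 37.6 to 10.3, and the sites at 13.9 kb (chr9:63743693-63744197) and 51.5 kb (chr9:63706071-63707014) went from 33.6 to 59.1 and from 25.6 to 58.4. The remaining site up at Smad3, at 55.2 kb, went from 12.8 to 26.6, and the other site up lay in the downstream flank of Tgfb1 (8.31 to 22.5). A Tgfbr3 intronic site 5.38 kb past the start (chr5:107283810-107284401) went from 39.7 to 12.5, stood at 2.28 in NT siRNA and was not called in H2A.Z siRNA.

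Counted in fragments, of the 69 shared sites 9 had a fragment interval above the median shared site (13% of all protein-coding locus sites did) and 5 below it (8.55% of all). The median fragment ratio of the 69 was 0.997, beside 1.00 over all. Of the sites that ranked 10 points or more lower, 3 also had an interval below the median: the Tgfb2 site at 10540 bp (0.651, 0.470 to 0.895), the Tgfbr3 site at 5.38 kb (0.633, 0.398 to 0.991) and a Smad3 intronic site at 39036 bp (0.652, 0.458 to 0.920). Of the 4 sites that ranked higher, the Smad3 site at 13.9 kb had an interval above the median (1.54, 1.01 to 2.37). The intervals of the others included 1, at 1.38 (0.886 to 2.15) for the Smad3 site at 51.5 kb, 0.996 (0.606 to 1.63) for the one at 55.2 kb and 0.965 (0.606 to 1.53) for the Tgfb1 flank. For the Tgfb2 site that fell furthest in rank, the ratio was 0.861 (0.629 to 1.17), an interval that includes 1.

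**Figure D5:**
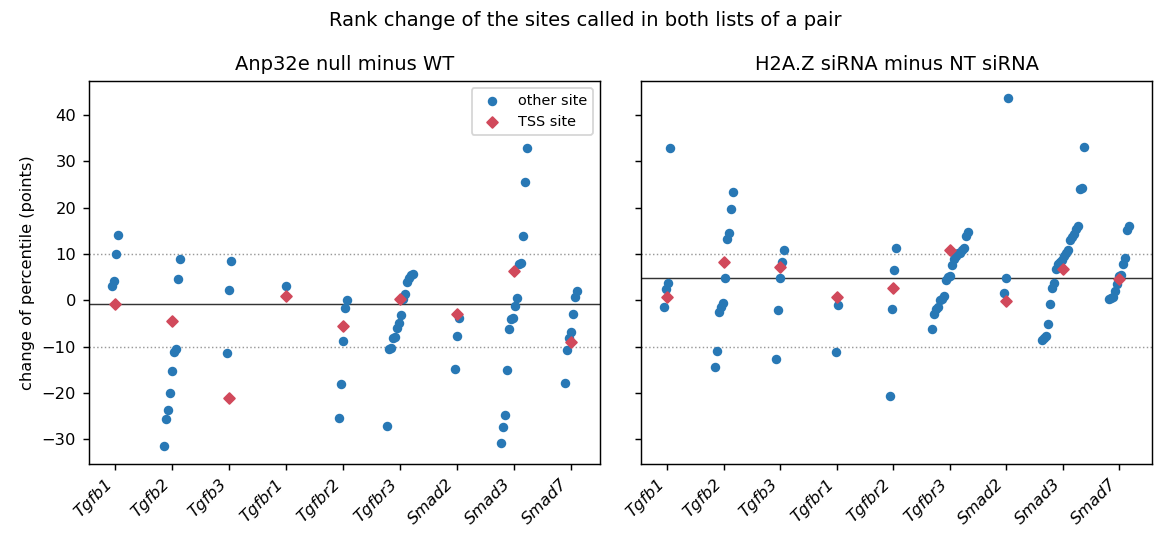
Change of percentile (y axis, points) of every member site called in both lists of a pair, by gene, for Anp32e null minus WT (left) and H2A.Z siRNA minus NT siRNA (right), with TSS sites as red diamonds, other sites as blue points, dotted lines at 10 points and a solid line at the median over all protein-coding loci. Tgfb2 has 7 of 10 sites below the lower dotted line on the left.

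Sites called in a single list of the first pair were weak. Of 89 sites, 12 (13.5%) were called in WT and not in Anp32e null, beside 15.2% of all, and 8 (8.99%) in Anp32e null and not in WT, beside 13.8%. The highest of the former were the Tgfbr2 intronic site 7.86 kb past the start and the Smad3 site 20.3 kb past the start, both at percentile 31.98 with 30 fragments. The latter reached 72.6 after H2A.Z siRNA, against 58.9 after NT siRNA. The highest site called in Anp32e null and not in WT was in a Smad2 intron at 12.1 kb (percentile 27.7, 22 fragments). Tgfb2 held 3 of the 8.

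Between NT siRNA and H2A.Z siRNA, 27 of the 89 shared sites ranked 10 points or more higher in the latter (30.3%) and 5 lower (5.62%), beside 32.5% and 5.62% over all protein-coding loci. With the same number of peaks taken from each list, 6 moved up (8.57%, beside 15.99% over all loci) and 16 down (22.9%, beside 18.8%). Smad3 had 10 sites up and none down, and Tgfbr3 had 7 up and none down. The Smad2 intronic site at 42.8 kb moved furthest, from percentile 25.5 to 69.0, with 21 fragments in NT siRNA and 157 after H2A.Z siRNA and a fragment ratio of 1.97 (1.24 to 3.26). It was at 52.7 in WT and 45.1 in Anp32e null. The Smad3 site at 56.9 kb went from 8.18 to 41.3 (ratio 1.64, 1.24 to 2.21) and the one at 10.1 kb from 40.0 to 64.3 (1.77, 1.45 to 2.19). The site in the downstream flank of Tgfb1 went from 5.05 to 37.8 (1.60, 1.11 to 2.37). Downward, a Tgfbr2 intronic site at 36.5 kb went from 32.6 to 11.9 (0.493, 0.294 to 0.846), and sites of Tgfb2 (42.5 to 28.1), Tgfb3 (29.0 to 16.4) and Tgfbr1 (28.0 to 16.8) followed.

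By fragments, 16 of the 89 sites had an interval above the median shared site (16.2% of all did) and 14 below it (15.4%). The gene split was uneven. Smad3 had 9 of its 23 shared sites above and 2 below, and Smad7 had 4 of 12 above and none below. Tgfbr3 had 4 of 20 below and 1 above, and the ligands Tgfb2 and Tgfb3 and the receptors Tgfbr1 and Tgfbr2 together had 7 below and none above. Tgfb1 had 1 above and 1 below, and Smad2 had 1 above and none below. No test of this split was made.

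Sites called in a single list of the second pair came mostly from H2A.Z siRNA, the deeper list, but with the same number of peaks taken from each list 6 were called only in H2A.Z siRNA of the pair and 9 only in NT siRNA. Of 121 sites, 26 (21.5%) were called in H2A.Z siRNA and not in NT siRNA, beside 23.9% of all, and 6 (4.96%) in NT siRNA and not in H2A.Z siRNA, beside 3.83%. The highest of the 26 was a Tgfbr3 intronic site at 36.1 kb (chr5:107253436-107253781), at percentile 70.9 with 164 fragments and called in no other list. The Smad2 intronic site at 12.1 kb was next at 44.9. Smad2 held 5, Tgfbr3 5 and Smad3 5 of the 26.

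Of the 18 member sites called in all lists that ranked 10 points or more lower in Anp32e null than in WT, 6 (33.3%) ranked 10 points or more higher after H2A.Z siRNA than after NT siRNA, beside 40.2% over all protein-coding loci. Of the 4 that ranked 10 points or more higher in Anp32e null, 3 ranked 10 points or more higher after H2A.Z siRNA, beside 2830 of 7702 such sites over all protein-coding loci, and none ranked 10 points lower, beside 5.998%. The Smad3 site at 55.2 kb went from 34.2 to 26.0 in that pair. The Smad3 site at 10.1 kb was among the 6, at 57.6 in WT, 26.7 in Anp32e null, 40.0 in NT siRNA and 64.3 after H2A.Z siRNA. These counts were not repeated with the same number of peaks taken from each list. With that setting, 6 of the shared member sites moved up and 16 down in the siRNA pair.

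Other genes of the pathway were read from a list of 43. A TSS peak was called for 41 of them in WT and in Anp32e null and for 42 in each siRNA list, beside the 66.7% to 68.4% of protein-coding genes given above. The start of Mstn, which encodes the muscle growth inhibitor myostatin, had none in any list. The start of Eng, which encodes the co-receptor endoglin, had a peak only in NT siRNA (percentile 58.9) and H2A.Z siRNA (63.2). In Anp32e null 8 of 41 ranked 10 points or more lower and 1 higher, beside 11% and 6.9% of all protein-coding TSS sites, with a median of -4.54 points. After H2A.Z siRNA 7 of 42 ranked higher and 1 lower, beside 14% and 2.7% of all, with a median of 4.52 points. Among the 9 ligand and latent-binding genes compared, 3 ranked lower in Anp32e null and none higher. The receptors and co-receptors had 1 of 9 lower, the SMADs and regulators 2 of 13 lower, and the targets 2 of 10 lower and 1 higher. Tgfbi, which encodes a TGF-beta-induced matrix protein, was the gene that ranked higher in Anp32e null (30.4 to 57.8), and Ltbp2, a latent-TGF-beta-binding-protein family member, fell furthest (63.7 to 31.9). Acvrl1, which encodes an endothelial type I receptor, ranked furthest up after H2A.Z siRNA (50.3 to 77.0). The values of Tgfbi, Ltbp2 and Acvrl1 were singled out after they were seen.

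The pattern of Tgfb3 across the lists, the widest of the 9 genes at 21.1 points, was most like that of Dctn1 (60.7, 39.9, 43.6 and 50.6), Vnn1 (62.0, 36.8, 42.5 and 49.6) and Rsph1 (62.7, 40.8, 40.6 and 46.9) among 14044 genes, by the distance between their percentiles in the 4 lists (2.44, 3.08 and 3.64 points).

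Within 100 bases of the WT summit of the 9 TSS peaks, GC content was 58.2% to 73.6%, beside a median of 64.2% over all protein-coding genes. GGCGCC was found at Tgfbr1, Tgfbr2 and Tgfbr3, which are the 3 receptor genes, beside 18.5% of 14764 such windows. GGGCGG was at Tgfb2, Smad3 and Smad7 (45.7% of all), CCAAT at Tgfbr1, Tgfbr2 and Smad2 (25.8%), GGAATG at Tgfb3 and Smad7 (8.16%) and TGANTCA at Tgfbr2 alone (6.34%). TGACGTCA (1.75%) and GTCTAGAC (0.142%) were in none of the 9, and the Tgfb1 window held none of the 7.

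The labelled cell type was checked at marker genes. All 10 fibroblast markers had a TSS peak in each list, from percentile 23.5 (Col3a1) to 91.8 (Fbn1) in WT. Of all protein-coding genes, 66.7% to 68.4% had one. In Anp32e null 3 of the 10 markers ranked 10 points or more lower, Prrx1 (30.1 to 5.98), Pdgfra (59.9 to 42.2) and Vim (72.0 to 57.9), and Col3a1 ranked higher (23.5 to 49.7). Over all protein-coding TSS sites 11% ranked that much lower and 6.9% higher. After H2A.Z siRNA 1 of the 10 ranked higher and none lower, beside 14% and 2.7% of all. Of the markers of other cell types with a value in WT and Anp32e null, Epcam (54.2 to 30.6) and Cdh5 (27.3 to 12.6) ranked lower and Rbfox3 (25.4 to 52.1) higher. Of those with a value in both siRNA lists, Cdh5 ranked higher after H2A.Z siRNA (26.7 to 54.9) and none ranked 10 points lower. Of 15 markers of pluripotent, endothelial, blood, epithelial and neural cells, 5, 6, 7 and 9 had a TSS peak in the 4 lists. Kdr, an endothelial receptor, was at 86.8 to 90.2. The epithelial genes Epcam and Cdh1 were at 54.2 and 36.7 in WT and 50.8 and 68.2 in NT siRNA. Nanog, Dppa5a, Tie1, Ptprc, Krt5 and Neurod1 had no TSS peak in any list. An accessible start is not expression, and the part of other cells in these values was not tested.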

How the data were processed

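ATAC-seq libraries of 9 samples had been aligned to mm10 with Bowtie2, PCR duplicates removed with Picard, and peaks called with MACS2 (BAMPE mode, no control) on the libraries of each group together. The 4 deposited peak lists give a fold ratio over the local background at each summit, which the authors obtained from MACS2, together with a −log10 p-value and a −log10 q-value per peak. No replicate values were in the lists, so counts are descriptive, and no columns of per-sample values were left unused (0).

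Peaks on other sequences than the 19 autosomes, X and Y (86, 73, 0 and 0) were dropped, and no peak ran past the end of a GRCm38 chromosome. Summit fragments and local background were solved from the fold and the −log10 p-value. Solved values were whole within 0.05 for 100% of peaks in each list, and the solution was checked on simulated data. The genome-wide background of a list is its most frequent local background. Peaks of the 4 lists that overlapped or touched were merged into sites, a site counted for a gene when any part lay in its body or within 10 kb, and the TSS site of a gene was the site within 1 kb of any annotated start with the highest summed percentile. Rank changes of 10 points were counted. A fragment ratio has a conditional binomial 95% interval, and intervals cover counting error only.

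Members, gene lists and the named-site rule (up to 4 sites per direction and comparison with the largest rank change or, for sites in a single list of a pair, the highest percentile, the 3 genes nearest to the member of widest range, and pathway genes whose TSS peak was absent or differed) were chosen with earlier results of these data known. Ctgf is listed as Ccn2 in the annotation. Analyses used Python 3.11.15, NumPy 2.4.6, pandas 2.3.3, SciPy 1.17.1, pyfaidx 0.9.0.4 and matplotlib 3.10.9. Alternatives covered a −log10 q of 5, equal peak numbers (the highest folds, as many as in the shortest list), a depth scaling (summit fragments and local background of the deeper list of a pair multiplied down to the genome-wide background of the shallower, re-tested with the Poisson tail and kept at the lowest −log10 p of the shallower list), start and window definitions, overlap of 50%, ranks by −log10 p, a change of 20 points and, added after the data were seen, ranks by summit fragments.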

Additional observations from a re-analysis of the deposited data

How the results depend on the processing

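Presence of a TSS peak at the 9 genes, the number of sites and the number called in all 4 lists stayed within 1.5 times under every alternative run for them, as did 105 of 130 values in all for counts. Requiring a −log10 q of 5 left 7 sites called in WT and not Anp32e null, moved 9 shared sites up and 13 down in Anp32e null, left 3 sites called in NT siRNA and not H2A.Z siRNA, 3 shared sites down after H2A.Z siRNA and 3 TSS sites up. Taking the same number of peaks per list gave 6 sites called in H2A.Z siRNA and not NT siRNA and 9 the other way, 6 shared sites up and 16 down and 0 TSS sites up, and it reversed the median changes after H2A.Z siRNA to -3.39 points for shared sites and -1.48 for TSS sites. Scaling the deeper list of a pair down to the background of the shallower, which left 96743 peaks for H2A.Z siRNA against 89272 for NT siRNA, gave 16 sites called in H2A.Z siRNA and not NT siRNA, 13 up and 9 down. A reciprocal overlap of 50% gave 14 sites called in NT siRNA and not H2A.Z siRNA, and 5 kb flanks gave 2 sites down after H2A.Z siRNA. At 20 points, 2 sites moved up and 9 down in Anp32e null, 6 up and 1 down after H2A.Z siRNA, and 0 TSS sites up after H2A.Z siRNA. Ranks by −log10 p reversed the median TSS change in Anp32e null to 0.76 points and gave 0 TSS sites up after H2A.Z siRNA. Ranks by summit fragments, added after the data were seen, reversed it to 0.33 points and gave 0 TSS sites down in Anp32e null, 14 shared sites up and 3 down and 0 TSS sites up after H2A.Z siRNA. The Tgfb3 start then went from percentile 81.6 to 77.0. In Anp32e null the shared member sites still moved down more often than up with each of the 5 alternatives that change the lists or the ranking, between 20.97% and 29.0% down against 4.35% to 14.5% up, beside 17.3% to 19.04% down and 14.98% to 22.02% up over all protein-coding loci. No paired analysis was possible because peaks were called on the libraries of a group together, and leaving out replicates was not run for the same reason. The cause of the other shifts was not tested.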
